A study of Mus musculus with 8 samples.

Results

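The genes described here are 31 genes of glycolysis and of the response to low oxygen, chosen by name: 23 enzymes, transporters and kinases of glucose use, and 8 genes of the hypoxia-inducible factor (HIF) group. The platform annotation gave a probe set with a single gene symbol to 29 of them, out of 18194 genes on the array, and these 29 genes had 67 of its 45101 probe sets. Gpi1 and Eno1 had no such probe set and have no value here. Aldoc and Slc16a3 lay below the filter on low values, which left 27 genes tested (19 of glucose use, 8 of the HIF group) among 10916 tested genes. The HIF group and the glucose group are described apart.

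RNA was measured on Affymetrix arrays, where a probe set is a group of short probes against 1 transcript, in 3T3-L1 adipocytes, fat cells differentiated in culture from a mouse fibroblast line. Cells exposed to tunicamycin gave 1 array at 4 h, 1 at 8 h and 2 at 12 h. Control cultures gave 1 array at 4 h, 2 at 8 h and 1 at 12 h. Tunicamycin stops the addition of N-linked sugars to proteins in the endoplasmic reticulum (ER) and is used to cause ER stress. The sources used here give no dose, no vehicle for the control and no day of differentiation. All arrays come from a single cell line. The labels call the replicates biological.

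Glycolysis takes up glucose, traps it as a phosphate, splits it and turns it into pyruvate, which is either reduced to lactate and exported or passed to the mitochondrial pyruvate dehydrogenase complex. Pyruvate dehydrogenase kinases phosphorylate that complex and slow the entry of pyruvate. HIF alpha subunits are marked by prolyl hydroxylases and destroyed when oxygen is present; in low oxygen they persist, join ARNT and switch on many glycolytic genes and genes for blood vessel growth. In fat cells, glycolysis also supplies the glycerol backbone of stored fat.

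The treatment was visible in the arrays: all 6 of the ER stress genes used as a check (Hspa5, Ddit3, Atf4, Herpud1, Trib3, Dnajb9) rose over all times. The cells carried adipocyte transcripts. Adipoq, a fat-cell hormone, had 9240.5, 8792, 8056 and 8016 normalized intensity units on the tunicamycin arrays (4 h, 8 h and both 12 h arrays). On the control arrays it had 8894 at 4 h, 9746 and 8494 at 8 h, and 8449.8 at 12 h. Of 11 adipocyte markers, 9 had a probe set and 8 were tested; 4 fell and none rose over all times, and the 9 had a summed intensity of 29497 to 39495 on tunicamycin arrays, against 35809 to 41358 on control arrays. Fibroblast markers (8 of 8 tested) summed to 22611 to 26381, against 25310 to 30117, with 1 risen and 1 fallen over all times. At 12 h, 1 fibroblast marker was higher and 5 of the 8 lower (median -0.60), and 4 adipocyte markers were lower and none higher. In the leukocyte, endothelial and epithelial lists, 1 of 5, 0 of 3 and 1 of 4 genes passed the filter. Their summed intensities were 55.2 to 80.0, 11.5 to 26.5 and 169.7 to 265 on tunicamycin arrays, against 48.7 to 83.9, 5.60 to 26.7 and 222 to 330.1 on control arrays, and Cd3e and Pecam1 were at 0 on every array. Lower marker levels can come from fewer cells of a type or from less RNA per cell, and a bulk array cannot tell these apart; the part of the adipocyte and fibroblast markers in the results below was not tested. The 4 h tunicamycin array had an actin 3' to 5' signal ratio of 2.81, against 1.51 to 1.82 on the control arrays. A ratio of hybridization control probes (bioC over bioB) was 0.645 to 0.856 on the 3 arrays at 12 h and 2.08 to 2.75 on the arrays at 4 h and 8 h.

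Averaged over all times, most genes of glucose use changed little with tunicamycin, and Pdk4 changed most. Over all times, limma's additive model of time and treatment called 2 of the 19 tested genes higher (Pdk4 and Pfkp) and 1 lower (Pfkm) at an adjusted p under 0.05. In that comparison 20.7% of all tested genes were called, 11.1% higher and 9.68% lower, so 3 of 19 is near the background. The median log2 fold change of the 19 genes was -0.05, against -0.01 over all tested genes. The change was within 0.5 on the log2 scale, either way, for 17 of the 19 (89.5%, against 76.7% of all tested genes). The whole 95% interval lay within those bounds for 9 of the 19, against 3445 of the 10916 tested genes. At 4 h the change was within 0.5 for 18 of the 19 (94.7%, against 82.1% of all tested genes). At 8 h this held for 16 (84.2%, against 66.8%) and at 12 h for 12 (63.2%, against 63.3%). In the HIF group 1 of 8 genes was called higher (Adm) and 1 lower (Epas1) over all times, with a median of 0.07.

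**Figure D1:**
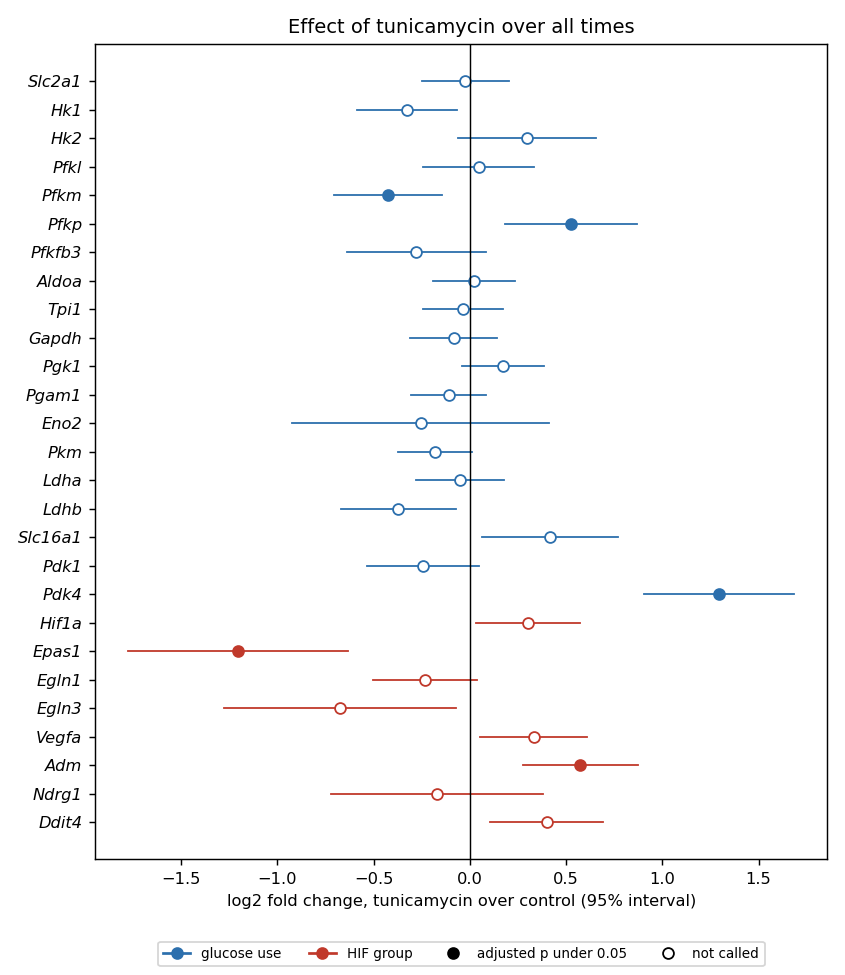
Log2 fold change of tunicamycin over control across all times (horizontal axis) for the 27 tested genes, in blue for glucose use and red for the HIF group. Bars are 95% intervals of the limma fit and filled points are called at an adjusted p under 0.05; Pdk4 (1.30) and Epas1 (-1.20) lie farthest from 0, on opposite sides.

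Promoters of 3 of the 5 genes called over all times are shown because the hypoxia response element, the site that HIF binds, has the core letters ACGTG or GCGTG. The sequences are the 250 bases before the transcript start from RefSeq (build GRCm38.p6), printed 5′ to 3′ on the gene's own strand. Capitals mark GCGTG, or the same letters read on the other strand (CACGC). None of the 3 windows held ACGTG on either strand, whereas 2 of the Pfkm windows did. In 1 of these, the 2 matches are a single CACGTG read on both strands, and the other held 1 match. Shown are Pdk4 (chr6:5496279-5496528, minus strand), Pfkp (chr13:6648772-6649021, minus strand) and Adm (chr7:110627407-110627656, plus strand). Of the other 2, Epas1 had no entry in the table, and Pfkm, with the smallest change of the 5 and 4 windows, is not printed.
Pdk4: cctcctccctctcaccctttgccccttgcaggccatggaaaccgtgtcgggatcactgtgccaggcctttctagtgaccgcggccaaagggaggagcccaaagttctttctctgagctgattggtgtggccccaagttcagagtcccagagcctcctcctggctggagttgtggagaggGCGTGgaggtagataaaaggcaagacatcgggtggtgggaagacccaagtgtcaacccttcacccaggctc
Pfkp: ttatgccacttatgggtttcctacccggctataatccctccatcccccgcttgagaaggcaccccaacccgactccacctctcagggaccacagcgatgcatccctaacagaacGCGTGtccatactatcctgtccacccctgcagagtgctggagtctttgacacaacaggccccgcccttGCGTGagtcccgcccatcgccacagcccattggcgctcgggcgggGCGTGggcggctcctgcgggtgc
Adm: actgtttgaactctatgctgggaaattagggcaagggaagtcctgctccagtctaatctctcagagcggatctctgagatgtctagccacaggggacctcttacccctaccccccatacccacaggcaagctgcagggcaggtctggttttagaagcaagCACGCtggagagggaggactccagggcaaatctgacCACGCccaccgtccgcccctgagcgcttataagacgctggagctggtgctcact
The Pdk4 window held 1 GCGTG, the Pfkp window 3 and the Adm window 2. At least 1 of ACGTG and GCGTG, read on both strands, was present in 28 of the 36 windows of the glucose genes (77.8%) and in 6 of the 7 windows of the HIF group (85.7%), against 38.6% of all 32851 windows. The 36 windows belong to 23 genes and the 7 windows to 6 genes. Some windows of the same gene overlap (Eno1, Aldoa, Pfkm), so windows are not independent. By gene, 20 of 23 and 6 of 6 had such a match in at least 1 window. The share of all genes with such a match was not computed. A gene with several windows has more chances of a match, so the share by window is no background for these counts. ACGTG alone was in 38.9% of the glucose windows, 71.4% of the HIF windows and 16.6% of all windows. The members' windows were richer in G and C, with a median of 60.4% against 52.4%, and the part of base composition in these shares was not tested. CCACG, one end of an ER stress element, was in 44.4%, 85.7% and 28.3% of the same sets; it can overlap ACGTG or GCGTG read on the other strand. TGATGNAAT, a composite site of ATF4 and a C/EBP partner, was in no window of either group (0% and 0%), against 0.816% of all windows. These counts are matches of letters in the windows only.

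Of the 3 genes of glucose entry, none was called over all times and Hk2 was called at 12 h. Slc2a1, the basal glucose transporter GLUT1, had 541, 481, 549 and 519 intensity units on the tunicamycin arrays (4 h, 8 h and both 12 h arrays, the order used for every gene below). It had 603, 458, 495 and 520.3 on the control arrays (4 h, both 8 h arrays and 12 h). The groups overlapped and the log2 fold change over all times was -0.02 (95% interval -0.25 to 0.20). Hk1, the hexokinase found in most tissues, had 339, 346, 347 and 302 units with tunicamycin, against 430.0, 381, 382 and 460.4 in control cells. Every tunicamycin value of Hk1 lay below every control value, but the change of -0.33 (SE 0.12) did not pass the test (adjusted p = 0.072). A second Hk1 probe set, with 96.6, 117, 113 and 166 units, against 136, 167, 152 and 162, did not separate the groups. Its difference over all times was -0.38 (adjusted p = 0.15 in the fit of all probe sets). Hk2, the insulin-responsive hexokinase of muscle and fat, had 841, 643, 743 and 622 units with tunicamycin, against 725, 708, 693 and 395. It was called higher at 12 h by 0.78 (SE 0.15, adjusted p = 0.0086), yet its 12 h tunicamycin values lay just above and just below those of the other 3 controls, and the 12 h control was the lowest of the 8 values. Over all times Hk2 differed by 0.30 (SE 0.16, adjusted p = 0.22).

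Phosphofructokinase, the committed step of glycolysis, is built from 3 subunit types, and their transcripts went different ways. Pfkp, the platelet-type subunit, had 369, 383, 508 and 458 units with tunicamycin, against 345, 280.3, 295 and 246 in control cells. Every tunicamycin array was above every control array, and Pfkp rose by 0.53 over all times (SE 0.15, adjusted p = 0.038) and by 0.96 at 12 h (SE 0.15, adjusted p = 0.0034). Pfkm, the muscle-type subunit, had 334, 241, 227 and 240.2 units, against 367, 376, 401 and 306. The 8 h and 12 h tunicamycin values of Pfkm lay below all 4 controls; it fell by 0.43 over all times (SE 0.13, adjusted p = 0.039) and by 0.68 at 8 h (SE 0.15, adjusted p = 0.018). Pfkl, the liver-type subunit, had 1186, 826, 858 and 714 units, against 1005, 983, 1052 and 659, and differed by 0.05 (95% interval -0.24 to 0.34). Another Pfkl probe set had 546, 444, 426 and 476 units, against 569, 536, 524 and 299. That set was called higher at 12 h (0.59, adjusted p = 0.043 in the fit of all probe sets) and differed by 0.11 over all times. Whether the subunits' effects differ from one another was not tested. In the model over all times, leaving out the lone array of a group also removes the comparison at its time. The overall calls of Pfkp and Pfkm were close to the threshold. Each was lost when any 1 of the 8 h or 12 h arrays was left out, with adjusted p-values of 0.074 to 0.24 for Pfkp and 0.067 to 0.26 for Pfkm; the change of Pfkp was 0.27 without the 12 h control and that of Pfkm -0.28 without the 8 h tunicamycin array. The 8 h call of Pfkm was lost without either 8 h control (adjusted p = 0.073 and 0.10). A second tested probe set of Pfkp had 42.1, 81.4, 169 and 191 units, against 96.5, 108, 87.0 and 84.0; it was called higher at 12 h (1.07, adjusted p = 0.030 in the fit of all probe sets) and differed by -0.01 over all times.

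The remaining steps down to pyruvate showed small differences, none called over all times. Pfkfb3, which makes the activator of phosphofructokinase, had 209, 157, 107 and 94.7 units with tunicamycin, against 181, 179, 225 and 151 in control cells; the 12 h tunicamycin values were the lowest of the 8, at -0.57 (adjusted p = 0.084 at 12 h). Aldoa, the main aldolase outside the liver, differed by 0.02 (95% interval -0.19 to 0.23) and Tpi1, triose phosphate isomerase, by -0.04 (-0.24 to 0.17). Aldoc, a second aldolase, had at most 4.06 units on a tunicamycin array and at most 7.05 on a control array, and was not tested. Gapdh, the dehydrogenase often used as a reference transcript, had 6064, 6834, 7376 and 8152 units, against 7597, 8218, 7453 and 6707; its log2 fold change was -0.08 (95% interval -0.31 to 0.14). These values are from a control probe set at the 5' end of Gapdh, and the 4 h tunicamycin array had a Gapdh 3' to 5' ratio of 1.11, against 0.857 to 0.937 on the control arrays. At 4 h the 5' set differed by -0.32 and the 3' set by -0.09; over all times the 3' set differed by 0.0069. Pgk1, the first enzyme to yield ATP, had 5012, 4922, 5123 and 4884 units, against 5246, 4712, 4592 and 3689.9. Only the 12 h control was clearly below the other values; Pgk1 was called higher at 12 h by 0.44 (SE 0.10, adjusted p = 0.018) and not over all times (0.17, adjusted p = 0.23). The 12 h call of Pgk1 was lost without 1 of the 12 h tunicamycin arrays (0.40, adjusted p = 0.052), and its direction turned with the arrays scaled as deposited (-0.07, where the median of all genes was -0.39). Pgam1, a phosphoglycerate mutase, differed by -0.11 and Eno2, the neuron-type enolase with 18.1 to 32.4 units on tunicamycin arrays and 17.8 to 32.1 on control arrays, by -0.26 (95% interval -0.92 to 0.41). Pkm, pyruvate kinase, had 2664, 2050.3, 1989 and 1752 units, against 2794, 2392, 2246 and 2246, a difference of -0.18 (adjusted p = 0.17).

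At the branch of pyruvate, the kinase Pdk4 rose over all times and the transporter Slc16a1 at 8 h and 12 h. Pdk4, which inactivates pyruvate dehydrogenase in fasting and stress, had 133, 191, 306 and 309 units with tunicamycin, against 73.7, 80.3, 89.7 and 86.2 in control cells. Every tunicamycin array was above every control, and the tunicamycin values were higher at later times while the controls stayed within 73.7 to 89.7. The means over the arrays of all times were 235 ± 87.2 with tunicamycin and 82.5 ± 7.03 in control cells (SD, n = 4 arrays each). This SD also holds differences between times. Pdk4 rose by 1.30 over all times (SE 0.17, 2.45-fold, adjusted p = 0.0017), by 1.14 at 8 h (adjusted p = 0.0047) and by 1.80 at 12 h (3.48-fold, adjusted p = 0.00050). At 4 h, with 1 array against 1, its 0.83 did not pass the test (adjusted p = 0.19). Pdk1, a kinase of the same complex and a HIF target, had 401, 312, 245 and 295 units, against 527, 369, 439 and 270.5, and did not pass the test (-0.24, SE 0.13, adjusted p = 0.21).

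Ldha, the lactate dehydrogenase subunit that favours lactate, had 5452, 4372, 4983 and 4497 units with tunicamycin, against 5757, 5602, 5211 and 4062, a difference of -0.05 (95% interval -0.28 to 0.17). Ldhb, the subunit that favours pyruvate, had 2342, 1809.8, 1553 and 1149.9 units, against 2319, 2334, 2650.5 and 1990.4. Its 8 h and 12 h tunicamycin values lay below all 4 controls, and its -0.37 over all times (SE 0.13) did not pass (adjusted p = 0.077); it passed at -0.52 with either 4 h array left out (adjusted p = 0.015 and 0.016). The other 3 probe sets of Ldhb, which differed by -0.33 to -0.46, were not called either. Slc16a1, the lactate and pyruvate transporter MCT1, had 359, 542, 496 and 573 units, against 407, 357, 372 and 325. Its 8 h and 12 h tunicamycin values lay above all 4 controls and its 4 h value did not. Slc16a1 rose by 0.57 at 8 h (SE 0.16, adjusted p = 0.037) and by 0.71 at 12 h (SE 0.16, adjusted p = 0.014), with 0.42 over all times (adjusted p = 0.089). The 8 h call was lost without either 8 h control (adjusted p = 0.16 and 0.12), and the overall change was called, at 0.64, without either 4 h array (adjusted p = 0.0039). Slc16a3, the exporter MCT4, had at most 8.59 units on a tunicamycin array and at most 9.51 on a control array, with 0 on 3 of 4 arrays of each, and was not tested.

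**Figure D2:**
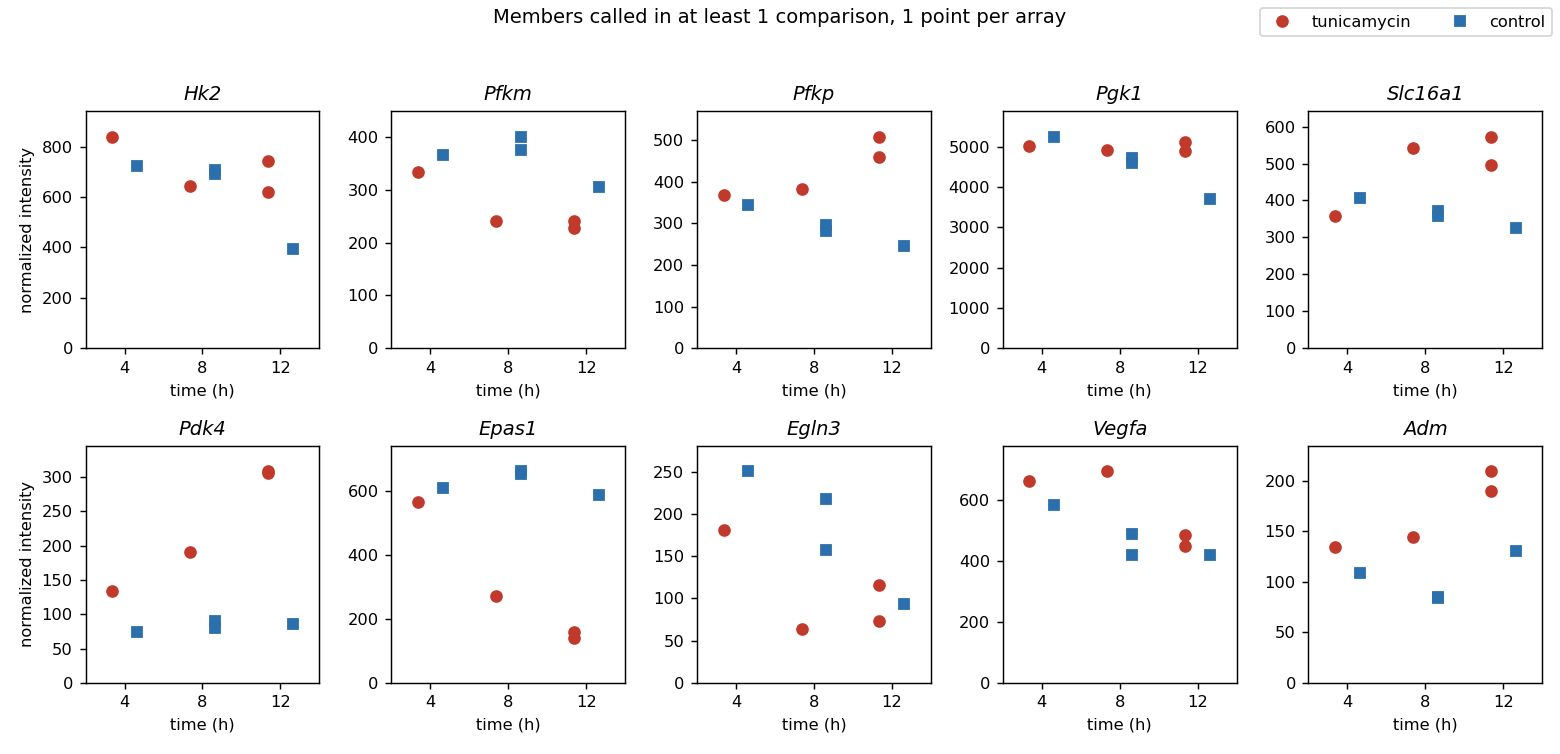
Normalized intensity (vertical axis, linear from 0) against time in hours for the 10 genes called in at least 1 comparison, 1 point per array, with tunicamycin as red circles left of control as blue squares. Pdk4 is above and Epas1 below the controls of its own time at every time, and Hk2 and Pgk1 stand apart from control at 12 h, where the lone control array is low.

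Of the 4 genes for HIF subunits and hydroxylases, Epas1 fell and the others did not pass the test over all times (median -0.45), and of the 4 induced genes Adm rose (median 0.37). Epas1, which encodes the HIF-2 alpha subunit and is abundant in endothelium and fat, had 567, 272, 159 and 139 units with tunicamycin, against 612, 655, 664 and 588 in control cells. Every tunicamycin value was below every control value, by little at 4 h and by more later. The means over the arrays of all times were 284 ± 197 with tunicamycin and 629 ± 35.8 in control cells (SD, n = 4 arrays each). This SD also holds differences between times. Epas1 fell by 1.20 over all times (SE 0.26, adjusted p = 0.011), by 1.27 at 8 h (SE 0.15, adjusted p = 0.0013) and by 1.96 at 12 h (SE 0.15, adjusted p = 0.00015); at 4 h the difference was -0.11 (adjusted p = 0.89). The overall call was lost without the 8 h tunicamycin array (-1.17, adjusted p = 0.092) and without the 12 h control (-0.77, adjusted p = 0.070). Both of these are lone arrays of their group, so each of these fits also lacks the comparison at that time. A second probe set of Epas1 had 20.6, 21.5, 3.13 and 12.6 units, against 43.2, 30.2, 41.4 and 52.5, all lower with tunicamycin. Its overall difference did not pass (adjusted p = 0.060). Hif1a, the subunit whose protein accumulates in low oxygen, had 1437, 1325, 994 and 1298 units, against 1166, 980.4, 892 and 1053; the groups overlapped. Its 0.30 over all times (SE 0.12) did not pass (adjusted p = 0.10), was called without 1 of the 12 h tunicamycin arrays (0.38, adjusted p = 0.044), and was not matched by its 2 other tested probe sets (0.08 and -0.36).

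The hydroxylases that mark HIF are HIF-induced themselves. Egln3 (PHD3) had 180.5, 63.8, 116 and 73.6 units with tunicamycin, against 250.4, 218, 157 and 92.9 in control cells. The control level at 12 h was the lowest of the 4 controls, and the tunicamycin values at 12 h lay on either side of it. Egln3 fell by 1.49 at 8 h (SE 0.30, adjusted p = 0.011), a call lost without 1 of the 8 h controls (-1.26, adjusted p = 0.062), and differed by -0.01 at 12 h and by -0.67 over all times (SE 0.27, adjusted p = 0.10). A second probe set had 88.7, 25.8, 31.7 and 49.9 units, against 206, 176, 126 and 67.5, lower at every time, and was called lower over all times (-1.46, adjusted p = 0.015). Egln1 (PHD2), the main oxygen sensor, had 302, 220.5, 261 and 227 units, against 321, 312, 288 and 269, and each tunicamycin value was below the controls of its time. Its -0.23 (SE 0.12) was not called (adjusted p = 0.20); its second probe set was called lower at 8 h (-0.88, adjusted p = 0.040).

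Of the 4 induced genes, Adm rose over all times. Adm, which encodes the vasodilator peptide adrenomedullin, had 134, 145, 209.7 and 189.9 units with tunicamycin, against 109, 84.6, 83.5 and 131 in control cells. Every tunicamycin array was above every control. The means over the arrays of all times were 169.6 ± 36.1 with tunicamycin and 102 ± 22.6 in control cells (SD, n = 4 arrays each). This SD also holds differences between times. In limma's additive model of time and treatment, Adm rose by 0.57 (SE 0.13, 1.49-fold, adjusted p = 0.015). The groups hold unequal numbers of arrays per time, so the ratio of the means is not the fold change of the model. A second probe set of Adm, with 105, 114, 220.0 and 206 units, against 94.8, 73.0, 77.6 and 91.9, also rose (0.68, adjusted p = 0.041). At 12 h this second set was called higher (1.19, adjusted p = 0.012 in the fit of all probe sets). The set that stands for Adm was not called at 12 h (0.60, adjusted p = 0.056). In the overall fit of Adm, the 8 h tunicamycin array and the 12 h control are lone arrays. Leaving out either also removes the comparison at its time. The overall call was lost without the 8 h tunicamycin array (0.47, adjusted p = 0.13) and without the 12 h control (0.56, adjusted p = 0.068), and the 8 h call (0.76, adjusted p = 0.025) without either 8 h control (adjusted p = 0.097 and 0.099).

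Vegfa, the growth factor for blood vessels, had 662, 693, 449 and 485 units with tunicamycin, against 583, 418, 486 and 417 in control cells. The 4 h and 8 h tunicamycin values were the highest of the 8, and the 12 h values lay among the controls. Vegfa rose by 0.62 at 8 h (SE 0.15, adjusted p = 0.026), which was lost without either 8 h control (adjusted p = 0.15 and 0.060), and differed by 0.33 over all times (adjusted p = 0.086). A second Vegfa probe set had 113, 174, 146 and 179 units, against 176, 111, 158 and 141, with overlapping groups. It differed by -0.63 at 4 h, by 0.39 at 8 h (adjusted p = 0.42) and by 0.04 over all times, and was not called. Ddit4 (REDD1), an inhibitor of mTORC1 signalling that ER stress can also induce, had 617, 313, 339 and 369.8 units, against 359, 282, 282 and 275. Its largest gap was at 4 h (0.78, 1 array against 1, adjusted p = 0.13), and its 0.40 over all times was just outside the threshold (SE 0.13, adjusted p = 0.056). Ndrg1, a hypoxia-induced differentiation gene, had 31.1, 22.3, 33.3 and 24.5 units, against 42.6, 23.2, 21.1 and 32.3, with no separation (-0.17, 95% interval -0.72 to 0.38). Another Ndrg1 probe set, at 1.58, 0, 5.94 and 17.5 units, against 32.6, 21.6, 12.2 and 32.9, was called lower over all times (adjusted p = 0.016); a value at 0 gives no fold.

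By time, no gene of either group was called at 4 h, where 0.394% of all tested genes were called (0.357% higher, 0.0366% lower). Each alternative run gave 0 calls at 4 h as well. At 4 h, 3 of the 27, and 1182 of all 10916 tested genes, had an unadjusted p under 0.05 in the limma fit. At 8 h, 2 glucose genes were higher (Slc16a1, Pdk4) and 1 lower (Pfkm), and 2 HIF group genes were higher (Vegfa, Adm) and 2 lower (Epas1, Egln3), against 18.4% of all tested genes called (9.42% higher, 8.95% lower). At 12 h, 5 glucose genes were higher (Hk2, Pfkp, Pgk1, Slc16a1, Pdk4) and none lower, and Epas1 was the only HIF group gene called. The share of all tested genes called at 12 h was 21% (10.1% higher, 10.9% lower). These counts use the probe set that stands for each gene. In the fit of all probe sets, a second set was called lower for Egln1 at 8 h and higher for Adm and Pfkl at 12 h. The 8 h count of higher HIF group genes was 0 without either 8 h control. A test of the difference between times, limma's moderated F test, called 1.72% of all tested genes and 1 of the 27 here, Epas1 (adjusted p = 0.029), with a difference of -1.85 between its effects at 12 h and 4 h; this call was lost without either 8 h control (adjusted p = 0.093 and 0.091). For the other 26 genes a call at 1 time and none at another is not a shown difference.

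**Figure D3:**
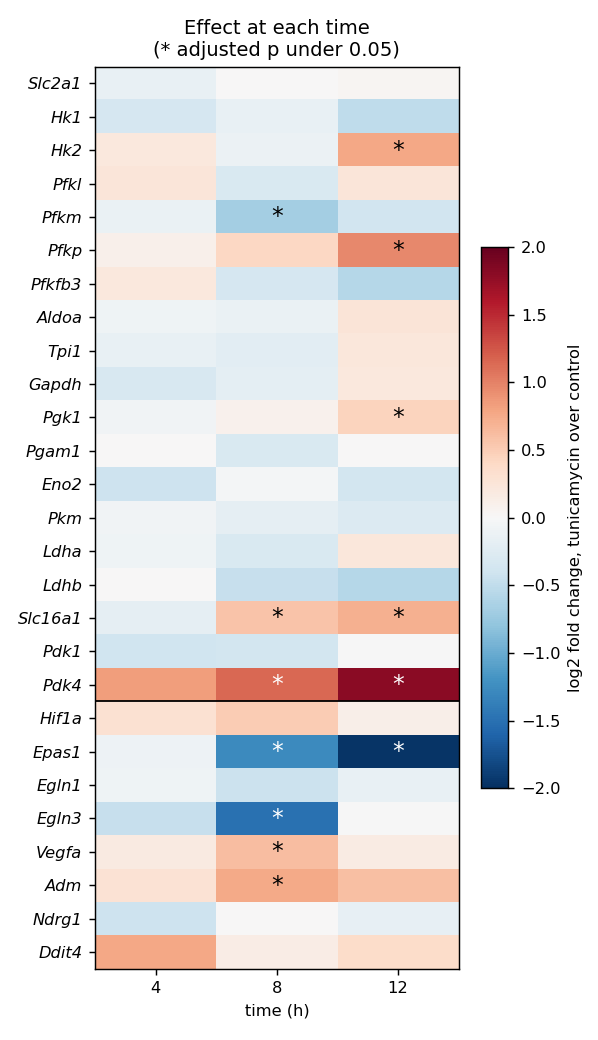
Log2 fold change of tunicamycin over control (colour, red higher and blue lower) at 4 h, 8 h and 12 h for the 27 tested genes, with the glucose genes above the line and the HIF group below it. Stars mark an adjusted p under 0.05: none at 4 h, 7 at 8 h and 6 at 12 h.

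The 12 h control is a single array, and glucose genes were low on it. For 14 of the 19 glucose genes (73.7%) and 5 of the 8 HIF group genes it was the lowest of the 4 control arrays, against 31.3% of all tested genes; it was also the lowest control for 6 of 8 adipocyte markers and for 23 of 38 other glucose and pyruvate genes (60.5%), and for 0 of 8 fibroblast markers. Hk2 was 0.84 lower on it than the mean of the other controls on the log2 scale, Pdk1 0.70 lower, Pfkl 0.62 lower and Egln3 1.11 lower. Of the 5 glucose genes called higher at 12 h, Pfkp, Slc16a1 and Pdk4 were above all 4 controls on both 12 h tunicamycin arrays, and Hk2 and Pgk1 were not. Hk1, Pfkm, Pfkfb3, Pkm, Ldhb, Epas1 and Egln1 were below all 4 controls on both. The part of this array in the 12 h calls was not tested beyond these values.

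**Figure D4:**
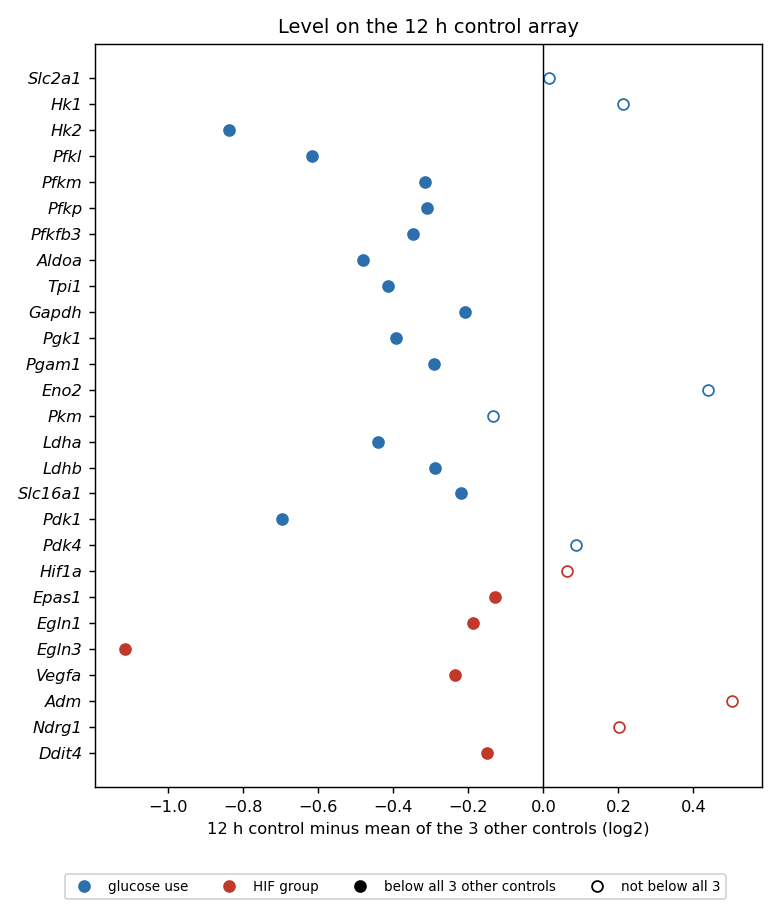
Log2 intensity on the 12 h control array minus the mean of the other 3 control arrays (horizontal axis) for the 27 tested genes, blue for glucose use and red for the HIF group, with filled points where the 12 h control was below all 3. Most points lie left of 0; Egln3 and Hk2 are farthest to the left and Adm farthest to the right.

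Taking the arrays time by time, each tunicamycin array was beyond the controls of its own time in the same direction for 5 of 19 glucose genes (Pfkp and Pdk4 above, Hk1, Pfkm and Pkm below) and 5 of 8 HIF group genes (Vegfa, Adm and Ddit4 above, Epas1 and Egln1 below). That was so for 38.9% of all tested genes (20.1% above, 18.8% below). Beside the probe set that stands for each gene, 31 further probe sets of these genes were tested; 24 had the same sign as the gene's own and 3 were called over all times, against 13.9% of the 20975 probe sets tested.

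The authors' deposited table of ratios, made from the same arrays, gave log10 ratios whose direction is not stated; its name points to the Rosetta Resolver software, and the test behind its p-values is not stated. They are read here as tunicamycin over control, since across the tested genes they correlated positively with the log2 fold changes above (r = 0.816, 0.926 and 0.915 at 4 h, 8 h and 12 h; genes are not independent replicates). In the authors' deposited table the log10 ratio of Pdk4 was 0.287 at 4 h, 0.371 at 8 h and 0.561 at 12 h. In the authors' deposited table that of Epas1 was -0.03, -0.39 and -0.64. At 4 h, with 1 array against 1, the 2 smallest p-values among the 27 genes in the authors' deposited table were those of Gapdh and Ddit4. Their log10 ratios in the authors' deposited table were -0.098 for Gapdh and 0.275 for Ddit4. The Gapdh value is from the 5' probe set, and the 4 h tunicamycin array had the raised Gapdh 3' to 5' ratio given above. The part of array quality in either value was not tested. Signs in the authors' deposited table matched those found here for 25, 26 and 26 of the 27 genes. The direction was set by the correlation with these same fold changes, so this match is not an independent check.

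Genes of the same pathways that are not among the 31 moved in both directions. Of 38 tested genes in a list of 46 other glucose and pyruvate genes, 2 rose and 5 fell over all times, with a median of -0.15. That is 18.4% called, near the 20.7% of all tested genes. Gys1, glycogen synthase, rose by 0.58 (adjusted p = 0.026), and Pdhb, a subunit of pyruvate dehydrogenase, by 0.39 (adjusted p = 0.040); for both genes the 12 h control was the lowest array. The largest fall was that of H6pd, which makes NADPH inside the ER, with 344, 94.8, 126 and 101 units under tunicamycin, against 303, 348, 290.4 and 262 in control cells (-1.01, adjusted p = 0.029). Eno3, the muscle enolase (-0.54, adjusted p = 0.019), Pgm1, which links glycogen to glycolysis (-0.48, adjusted p = 0.013), and Mpc1, a subunit of the mitochondrial pyruvate carrier (-0.46, adjusted p = 0.046), fell as well.

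Of 37 tested genes in a list of 51 other hypoxia-inducible and HIF pathway genes, 5 rose and 6 fell, with a median of -0.13. That is 29.7% called, against 20.7% of all tested genes (11.1% higher, 9.68% lower). Ero1a, an ER oxidase that both hypoxia and ER stress induce, had 3264, 6810.0, 5418 and 5968 units with tunicamycin, against 1496, 1082, 842 and 682 in control cells, and rose by 2.45 (adjusted p = 0.00092). Hmox1, haem oxygenase, had 799.8, 2747, 3375 and 3549 units, against 1028, 711, 646 and 798; it was not higher at 4 h and rose by 1.40 over all times (adjusted p = 0.022). Kdm4b, a histone demethylase, and Vldlr, a lipoprotein receptor, rose by 0.57 (adjusted p = 0.024) and 0.55 (adjusted p = 0.0092). Tgfb3, a growth factor, fell by 1.42 (adjusted p = 0.0025) and Tfrc, the transferrin receptor, by 1.32 (adjusted p = 0.0020). Ppp1r3c, which targets a phosphatase to glycogen, fell by 1.06 (adjusted p = 0.016) and Stc1, a secreted glycoprotein, by 0.89 (adjusted p = 0.0024).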

How the data were processed

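Per the labels, total RNA was extracted with Trizol, converted to biotin-labelled cRNA and hybridized to 8 arrays (4 tunicamycin, 4 control). The deposited tables hold 1 linear intensity per probe set, with 19.2% to 20.9% of values at or below 0 and array medians of 9.56 to 22.0; neither software nor scaling is named by the sources used here. The authors also deposited log10 ratios and p-values for each probe set, which entered no test. The columns matched to no sample numbered 0, and no 2 arrays were identical.

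Because array medians differed by 1.20 on the log2 scale, arrays were quantile normalized, values below 0 set to 0 and log2(value + 2.96) taken, which understates changes of low values. A gene was the probe set with a single symbol (34958 of them; 932 had several, 9211 none) of highest mean; the filter was the 40th percentile, about 15.3 units. Genes were tested with limma 3.58.1 (R 4.3.3, lmFit and eBayes with an intensity trend), Benjamini-Hochberg adjusted over 10916 genes, two-sided; the script was tested on simulated data. The model over all times has 4 residual degrees of freedom, and its error also holds differences of the effect between times; the model with 1 mean per group has 2, so lone arrays are assumed to vary like the replicated groups (8 h controls, 12 h tunicamycin). The number of arrays limits the precision. Same-numbered arrays of the 8 h controls and of the 12 h tunicamycin group did not deviate together (r = 0.032). Only these groups hold 2 arrays, so whether replicate numbers pair cultures of the same time could not be tested. Plots were drawn in Python 3.11.15 with matplotlib 3.10.9.

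The members and lists were chosen with earlier results of these data known. All 31 members are accounted for; of other genes, at most 4 called higher and 4 called lower with the largest change were named per list. Promoters were printed for the called members that lay on 1 side of the controls at every time, up to 2 by size overall and 2 from the glucose group, with the next one (Adm) taken for Epas1. Alternatives changed the scaling, pseudocount, filter, trend, probe set rule, covariates, block and the arrays used.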

Additional observations from a re-analysis of the deposited data

Results flagged for a closer look

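The effect of tunicamycin on Epas1 differed between times: limma's moderated F test gave an adjusted p of 0.0292, and the effect at 12 h minus that at 4 h was -1.85 on the log2 scale. It was the only 1 of the 27 tested genes with such a call, and both 4 h arrays are lone arrays. Without either 8 h control the call was lost (adjusted p = 0.0928 and 0.0915). No group holds 4 arrays, so no array could be tested as standing apart within its group.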

How the results depend on the processing

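Pdk4 over all times kept its call in all 19 alternatives (0.99 to 1.80, adjusted p up to 0.0426). The calls of Epas1, Adm, Pfkp and Pfkm over all times were lost in 4, 6, 13 and 14 of 19. The deposited scaling moved the median of all genes to -0.31 over all times and to -0.51, -0.07 and -0.39 at 4 h, 8 h and 12 h; relative to it, Pdk4 was at 1.30 and Adm at 0.58.

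With deposited scaling, the called genes numbered 850 over all times (2264 otherwise), 4, 39 and 74 at 4 h, 8 h and 12 h (43, 2005 and 2295 otherwise), and 0 in the F test (188 otherwise); glucose genes higher were 1 over all times and 0 at 8 h and 12 h, lower 0 over all times and 0 at 8 h; HIF group genes higher 0 over all times and 0 at 8 h, lower 2 over all times and 0 at 8 h and 12 h; no member differed between times (0). With median centring, 1203 genes were called at 8 h and 68 in the F test, glucose genes higher were 3 at 12 h and 1 at 8 h, lower 1 at 12 h, 0 at 8 h and 0 over all times, and HIF group genes higher 0 at 8 h. With no filter, 578, 133, 307 and 637 genes were called over all times, 4 h, 8 h and 12 h, and of the members 1 glucose gene was higher over all times, 0 at 8 h and 1 at 12 h, 0 were lower over all times or at 8 h, and 0 HIF group genes were called over all times or at 8 h; 0 differed between times. With no intensity trend, 1467, 0, 717 and 1108 were called and 0 in the F test; glucose genes higher were 1, 1 at 8 h and 2 at 12 h, lower 0, and HIF group genes 0 higher and 1 lower at 8 h. With the mean of all probe sets, 1466, 11, 1122 and 1309 were called and 0 in the F test; glucose genes higher were 1 over all times and 1 at 8 h, HIF group genes higher 0 at 8 h and 1 at 12 h, lower 2 over all times. With every probe set tested, the counts are of the 11806 tested sets that stand for a gene. Of these, 16 were called at 4 h and 0 in the F test. In that run glucose genes higher were 1 over all times and 1 at 8 h, and lower 0 over all times. HIF group genes higher were 1 at 8 h. A pseudocount of 16 gave 2 glucose genes lower and 1 HIF group gene higher at 12 h. The 4 h and 8 h arrays alone called 487 genes, 1 glucose gene higher, 0 lower and 0 HIF group genes; the 12 h arrays alone called 5 glucose genes higher, 0 lower and 0 HIF group genes higher. The cause was not tested.

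With time and the replicate number as a block, 1 glucose gene was higher and 0 lower over all times. The adjusted p-values of this limma fit were 0.0559 for Pfkp and 0.057 for Pfkm. The block changed no other call of a member. Whether the numbers pair cultures of the same time could not be tested.

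Leaving out 1 array at a time gave 374 to 2948 called genes over all times (the lowest without the tunicamycin array at 8 h), 22 to 49 at 4 h, 943 to 2303 at 8 h, 1724 to 2319 at 12 h and 7 to 104 in the F test. Glucose genes higher were 1 to 3 over all times, 1 to 2 at 8 h and 4 to 5 at 12 h, lower 0 to 2 over all times, at 8 h and at 12 h. HIF group genes higher were 0 to 2 over all times and 0 to 3 at 8 h, lower 0 to 1 over all times and 1 to 2 at 8 h; members differing between times were 0 to 1. Leaving out the lone array of a group gives no value at its time, and the fit over all times then lacks that time's comparison.

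Directions that turned were of changes not called, except Pgk1 at 12 h and, at 12 h, Slc16a1 with the mean of its probe sets (-0.275, where its second probe set is near 0). With deposited scaling Adm (-0.234), Hk2 (-0.325), Pfkp (-0.419) and Vegfa (-0.364) turned at 4 h, Pgk1 at 8 h (-0.108), 12 h (-0.0707) and over all times (-0.219), Vegfa at 12 h (-0.192), and Aldoa (-0.354) and Pfkl (-0.238) over all times. Median centring turned Aldoa (-0.098) and, at 8 h, Pgk1 (-0.0163). The mean of probe sets turned Aldoa (-0.033), Hif1a (-0.0584), Slc16a1 at 4 h (0.393) and Vegfa at 4 h (-0.225). The 4 h and 8 h arrays alone turned Aldoa (-0.117) and Pfkl (-0.0687), and the 12 h arrays alone Gapdh (0.209), Ldha (0.22), Pgam1 (0.00462), Slc2a1 (0.0376) and Tpi1 (0.219). With no time covariate Aldoa (-0.0415), Pfkl (-0.0475) and Slc2a1 (0.015) turned. Leaving out 1 array gave both directions for Aldoa (-0.117 to 0.108), Pfkl (-0.0687 to 0.243), Gapdh (-0.251 to 0.00679), Slc2a1 (-0.0586 to 0.0258), Tpi1 (-0.181 to 0.0629), Ldha (-0.208 to 0.0923) and Pgam1 (-0.176 to 0.00264) over all times and for Egln3 at 12 h (-0.324 to 0.308). In the fits over all times, 434 member values kept their direction and their side of the threshold, 37 lost and 10 gained a call, and 31 turned.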
